A study of Mus musculus with 2 samples.

Results

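Gfap-rich spots are the spots of 2 tissue sections in which the astrocyte filament gene Gfap took the highest share of the transcripts. They were chosen by value: among spots with at least 300 UMIs (counted transcript molecules), the 150 spots of each library with the highest share of UMIs from Gfap were taken, and ties went to the deeper spot. This gave 300 Gfap-rich spots, against 4223 other spots of at least 300 UMIs, out of 6464 spots in all. One section came from nude mice with a micropillar implant, whose surface carries small posts, and the other from nude mice with a flat implant. Per the labels, both were formalin-fixed, paraffin-embedded (FFPE) bone, nude mice being the background of both groups, and each group had 1 library. The sources used here give neither the age and sex of the mice, nor the site of the implant, nor the number of mice behind a section. A spot covers an area of tissue and may contain more than 1 cell, so the names of the gene lists below are names of lists and not of spots. Throughout, fewer cells of a type and less RNA per cell cannot be told apart.

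Astrocytes are glial cells that clear glutamate and potassium, supply neurons with lipid and wrap blood vessels with endfeet rich in the water channel Aqp4. Gfap is the filament protein of fibrous astrocytes of white matter and of the astrocytes that line the brain surface and the ventricles, while many grey-matter astrocytes carry little of it. In reactive astrocytes of injured or inflamed brain Gfap and Vim rise, and sets of further genes, among them Serpina3n, Lcn2, Cd44 and the complement genes C3 and C4b, have been described in mouse. Gfap is also expressed outside the brain, in non-myelinating Schwann cells.

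The promoter windows of 4 genes are printed here because Gfap set the ranking, Fxyd1 and the metallothionein gene Mt2 were past 2-fold higher in Gfap-rich spots of both sections, and Mt1 is the neighbour of Mt2. The sequences are RefSeq's for GRCm38.p6, from 250 bases before to 50 bases after the annotated start, and 4 of the 6 genes sought matched, Clu and C4b not. They lie at chr11:102897151-102897450 on the minus strand (Gfap), chr7:31054804-31055103 on the minus strand (Fxyd1), chr8:94172368-94172667 on the plus strand (Mt2) and chr8:94178839-94179138 on the plus strand (Mt1). Capitals mark matches on either strand to a metal response element (TGCACNC or TGCGCNC), a STAT palindrome (TTCNNNGAA) or a TATA box (TATAAA), which did not overlap each other.
Gfap: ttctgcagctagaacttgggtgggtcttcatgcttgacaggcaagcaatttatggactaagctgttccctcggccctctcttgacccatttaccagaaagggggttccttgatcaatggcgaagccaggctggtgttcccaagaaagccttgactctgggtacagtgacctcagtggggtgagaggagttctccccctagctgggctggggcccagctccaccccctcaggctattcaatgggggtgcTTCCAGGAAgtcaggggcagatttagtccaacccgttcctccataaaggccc
Fxyd1: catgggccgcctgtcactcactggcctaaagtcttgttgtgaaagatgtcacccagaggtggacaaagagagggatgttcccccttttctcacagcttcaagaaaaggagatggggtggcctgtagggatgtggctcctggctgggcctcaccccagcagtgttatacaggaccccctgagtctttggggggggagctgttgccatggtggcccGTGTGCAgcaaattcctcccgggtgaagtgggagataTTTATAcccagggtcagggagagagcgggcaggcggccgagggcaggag
Mt2: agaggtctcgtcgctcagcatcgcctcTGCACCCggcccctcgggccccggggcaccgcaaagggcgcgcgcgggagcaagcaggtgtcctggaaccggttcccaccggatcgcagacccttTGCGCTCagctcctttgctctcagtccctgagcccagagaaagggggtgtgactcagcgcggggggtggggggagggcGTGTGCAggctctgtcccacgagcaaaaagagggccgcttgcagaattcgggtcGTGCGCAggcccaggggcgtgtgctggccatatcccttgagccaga
Mt1: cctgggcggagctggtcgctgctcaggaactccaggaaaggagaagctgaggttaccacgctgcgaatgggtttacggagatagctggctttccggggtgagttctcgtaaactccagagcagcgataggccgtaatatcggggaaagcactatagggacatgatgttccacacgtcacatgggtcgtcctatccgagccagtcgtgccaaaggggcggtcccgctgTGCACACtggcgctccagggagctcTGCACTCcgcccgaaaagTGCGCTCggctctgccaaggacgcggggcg

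The Gfap window held 1 STAT palindrome, which 8.30% of all 32851 promoter windows of this length hold. The metal response element matched 4 times in Mt2, 3 times in Mt1 and 1 time in Fxyd1, and 25.7% of windows hold at least 1 match. The Fxyd1 window also held the TATA box, present in 13.6% of windows. These matches describe letters in a window and are neither sites nor causes.

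Gfap was sparse in both sections, and this decides what the 2 sets of 150 spots are. The micropillar library had 3188977 UMIs over 3303 spots, of which 362 were Gfap, and the flat library had 2286295 UMIs over 3161 spots, of which 236 were Gfap. Spots of at least 300 UMIs numbered 2625 in the micropillar section and 1898 in the flat section. Of these, 235 micropillar spots had a Gfap UMI (8.95%, 95% exact interval 7.89 to 10.1) and 124 flat spots did (6.53%, 5.46 to 7.74). Therefore all 150 micropillar members held Gfap, 99 of them with 1 UMI, 40 with 2 and 11 with 3 or more, 220 UMIs in all. A further 85 micropillar spots with Gfap fell outside the 150. In the flat section only 124 of the 150 members held Gfap, 90 with 1 UMI, 13 with 2 and 21 with 3 or more, 208 UMIs in all, and no flat spot with Gfap was left outside.

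The other 26 flat members had no Gfap UMI and entered as the deepest spots among those at a share of 0. They held 3241 to 4797 UMIs each, median 3532.5, and together 94093 of the 206658 UMIs of the flat members (45.5%). Their summed neuron list stood at 12169 CPM (counts scaled to 1000000 per set of spots, 95% exact Poisson interval 11474 to 12895) and their core astrocyte list at 3518 CPM (3149 to 3918), against 7735 and 7053 CPM in the other flat spots. For this reason the main flat values are given both for the 150 spots of the rule and for the 124 with a Gfap UMI, a split added after the data were seen. Where summed levels of the 124 are compared with other spots, the 26 count among the others, while shares counted spot by spot leave the 26 out of the others.

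**Figure D1:**
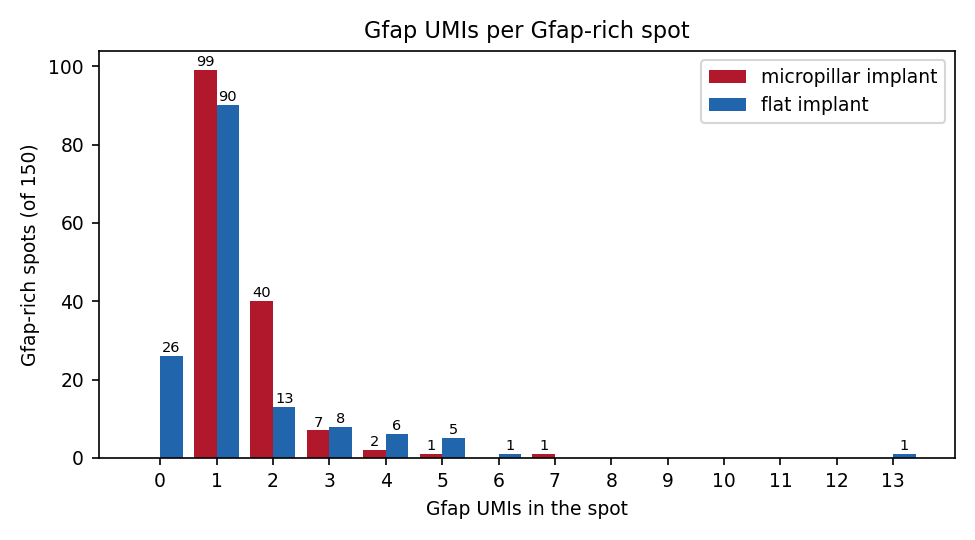
Number of Gfap-rich spots (vertical axis) by the Gfap UMIs in the spot (horizontal axis), micropillar bars left of flat bars. All 150 micropillar spots have at least 1 Gfap UMI, while 26 flat spots have none; the highest spots have 7 UMIs in the micropillar and 13 in the flat section.

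The highest Gfap share of a spot was 1.62% in the micropillar section and 1.42% in the flat section, and the medians over members were 0.200% and 0.132%. At the edge of the micropillar set, the last member had 2 Gfap UMIs of 2212 (0.0904%) and the first spot outside had 1 of 1108 (0.0903%). The last flat spot with Gfap had 1 UMI of 2939 (0.0340%), and the last flat member and the first spot outside both had 0 Gfap UMIs and 3241 UMIs in all, so file order decided between them. A share of UMIs is reached with fewer Gfap UMIs in a shallow spot. The median depth was 634 UMIs in micropillar members and 993 in the other micropillar spots, and 813.5 in flat members (737 with Gfap) against 862 in the other flat spots. A UMI in the summed members equals 9.38 CPM in the micropillar section and 4.84 CPM in the flat section (8.88 with the 124 spots). Spots of 1 section are not replicates, so all intervals below cover counting error only, no test between the sections was possible and no p-value is given. The 2 files share 2135 spot barcodes, a barcode naming a position on the capture area.

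Because depth differed, the main lists were also compared within spots of 300 to 999 UMIs, a check added after the data were seen that keeps 135 members and 1244 other spots in the micropillar section and 93 members with Gfap and 1020 other spots in the flat section. No spot outside the members had a Gfap UMI in that range.

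The 3 markers named for these spots did not behave alike. Gfap itself, the ranking gene, stood at 2063 CPM in micropillar members and 33.2 CPM in other micropillar spots, and at 1006 CPM in flat members (1848 with the 124 spots) and 0 in other flat spots, as the rule requires. Aqp4, the endfoot water channel, had 37 UMIs in micropillar members (347 CPM, 244 to 478) against 58.4 CPM in other spots, and 51 UMIs in flat members (247 CPM, 184 to 324) against 41.3 CPM. Its log2 ratio, taken throughout on CPM + 10, was 2.38 (1.86 to 2.88) in the micropillar section and 2.32 (1.84 to 2.79) in the flat section, or 3.10 (2.60 to 3.58) with the 124 spots. These Aqp4 UMIs lay in 29 of 150 micropillar and 36 of 150 flat members, so most Gfap-rich spots showed none. Vim, a filament gene of reactive and immature astrocytes and also of vessel wall, fibroblasts and many other cells, had only 17 UMIs in micropillar members (159 CPM) against 108 CPM in other spots, and 15 UMIs in flat members (72.6 CPM) against 81.1 CPM. Its log2 ratio was 0.52 (-0.22 to 1.19) in the micropillar section, -0.14 (-0.88 to 0.55) in the flat section and 0.72 (-0.08 to 1.43) with the 124 spots, so no difference in Vim over other spots was detectable at this depth. Among spots of 300 to 999 UMIs the Vim ratio was -0.46 (-1.22 to 0.22) in the micropillar and -0.01 (-0.90 to 0.78) in the flat section. In the few spots with 3 or more Gfap UMIs Vim was higher than in spots without Gfap, with values given below. Of the other named markers Aqp4 was thus higher over the whole sets and Vim was not detectably so, and the spots are called Gfap-rich here. Of the labelled bone, the bone genes Ibsp and Dmp1 had 0 UMIs in both sets and Bglap, osteocalcin, had 8 UMIs in micropillar members and 19 in flat members. Their single levels in other spots are not given here, so these counts alone show no difference from other spots. The bone matrix list was not absent, since its collagen gene Col1a2 had 196 and 81 UMIs. No UMI of the list was found in 84 of 150 micropillar members and 90 of the 124 flat ones. Its ratio within 300 to 999 UMIs was -1.61 (-1.82 to -1.40) in the micropillar and -1.62 (-1.96 to -1.29) in the flat section.

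Genes of astrocytes in general were higher in the Gfap-rich spots of both sections. A gene counted as higher or lower when its log2 ratio was past 1 (2-fold) and it had a mean of at least 100 CPM over both sides. Of the core astrocyte list, 12 of 15 measured genes past that minimum were 2-fold higher in micropillar members and none lower, against 3.44% of all 2469 genes, which is the share called higher in this comparison. In the flat members it was 4 of 14 genes, against 1.29% of 2401, and with the 124 spots 10 of 15, against 3.63% of 2425. The median log2 ratio of these genes was 1.17 in the micropillar section, 0.59 in the flat section and 1.28 with the 124 spots, beside -0.02, 0.02 and -0.04 for all genes. Summed over the 19 measured list genes, micropillar members had 2047 UMIs (19192 CPM) against 7264 CPM in other spots, a log2 ratio of 1.40 (1.33 to 1.47). Flat members had 2706 UMIs (13094 CPM) against 7053 CPM, a ratio of 0.89 (0.83 to 0.95), and the 124 spots 21099 CPM against 6887 CPM, a ratio of 1.61 (1.55 to 1.68). Within 300 to 999 UMIs the ratios were 1.04 (0.97 to 1.12) and 1.78 (1.70 to 1.85). The result does depend on the rule: with 300 spots per section, of which 65 micropillar and 176 flat spots have no Gfap UMI, the ratios were 0.12 and -0.051, and when 150 spots were ranked among those of at least 1000 UMIs, 50 and 119 of them without Gfap, they were -0.054 and -0.36.

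**Figure D2:**
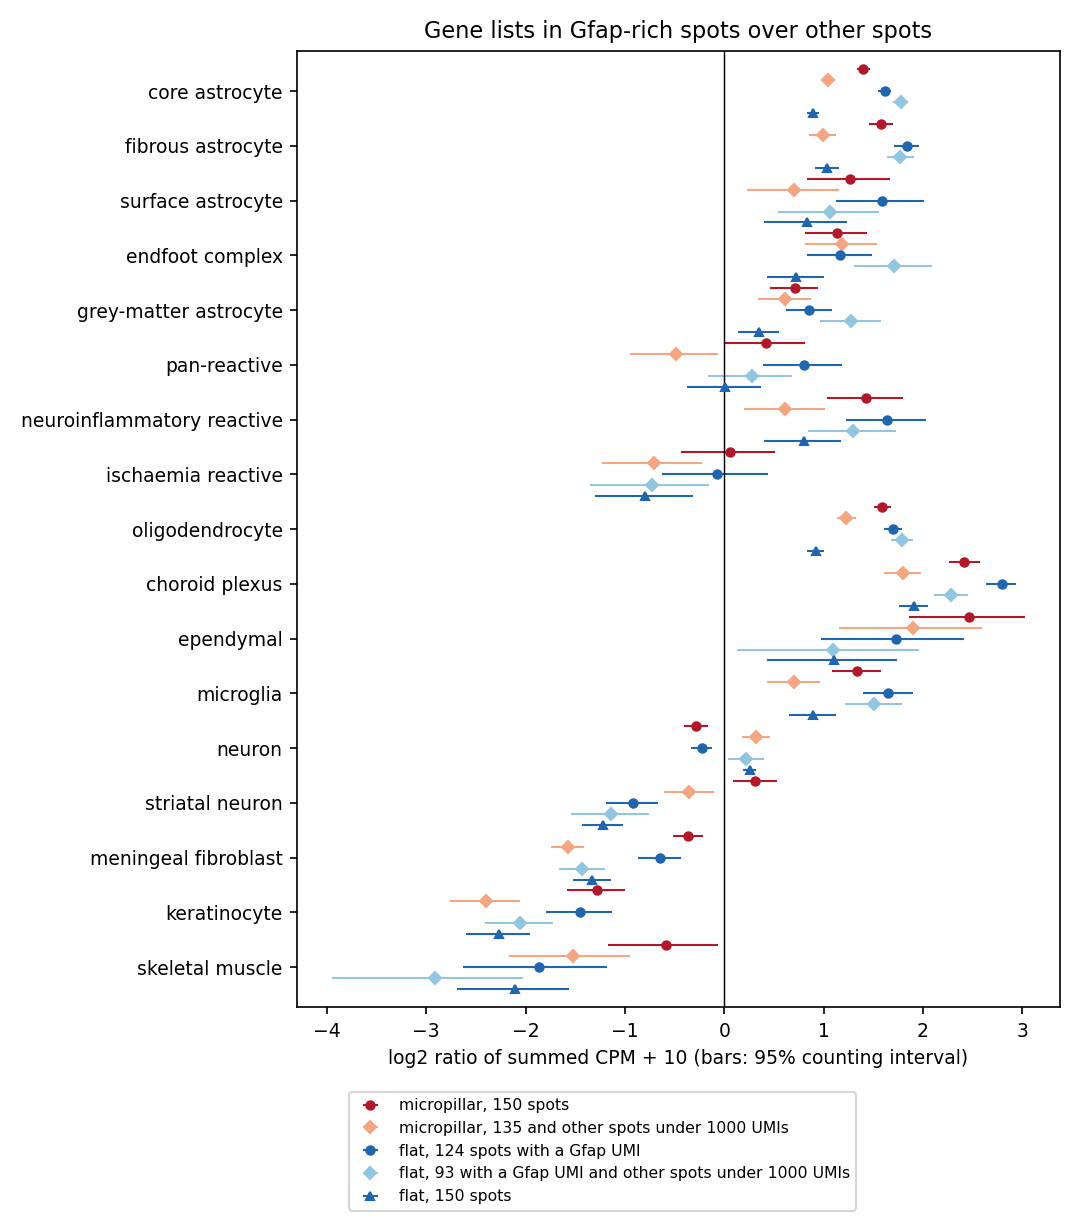
Log2 ratio of summed CPM + 10 in Gfap-rich over other spots (horizontal axis) for 17 gene lists (rows), with 95% counting intervals as bars; red and orange are the micropillar section, blue the flat section, diamonds the spots of 300 to 999 UMIs. Core astrocyte, fibrous, oligodendrocyte, choroid plexus and microglia lists lie right of 0 in each of the 5 sets, and the keratinocyte and skeletal muscle lists lie left of 0.

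The core list is carried by secreted and transport genes. Clu, a secreted chaperone, had 249 UMIs in micropillar members (2334 CPM) against 597 CPM, and 300 UMIs in flat members (1452 CPM) against 603 CPM, with log2 ratios of 1.95 (1.75 to 2.14) and 1.25 (1.07 to 1.44), or 1.90 (1.70 to 2.10) with the 124 spots. Apoe, the main lipid carrier of the brain, reached 4153 CPM in micropillar members against 1242 CPM, a ratio of 1.73 (1.59 to 1.88), and 2923 CPM in flat members against 1109 CPM, a ratio of 1.39 (1.26 to 1.52). With the 124 spots Apoe stood at 5108 CPM against 1071 CPM, a ratio of 2.24 (2.11 to 2.38), and within 300 to 999 UMIs the Apoe ratios were 1.04 (0.88 to 1.20) in the micropillar and 2.02 (1.87 to 2.17) in the flat section, so which section had the higher ratio depended on the spots compared. Apoe and the protease inhibitor Cst3 are also abundant in microglia, so neither is proper to astrocytes. Cst3 was the most abundant list gene, at 7397 CPM in micropillar members against 2783 CPM (1.41, 1.30 to 1.51) and 5323 CPM in flat members against 2941 CPM (0.85, 0.76 to 0.95), or 1.56 (1.46 to 1.66) with the 124 spots.

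The glutamate transporter gene Slc1a3 had a ratio of 1.38 (0.95 to 1.79) in the micropillar section and 0.64 (0.28 to 0.99) in the flat section, or 1.28 (0.88 to 1.66) with the 124 spots. The gap junction gene Gja1 stood apart: its 73 micropillar UMIs gave 684 CPM against 578 CPM in other spots (0.24, -0.11 to 0.57) and its 67 flat UMIs gave 324 CPM against 407 CPM (-0.32, -0.69 to 0.03), but with the 124 spots its ratio was 0.49 (0.10 to 0.85). Gja1 is also a gene of keratinocytes, fibroblasts and bone cells, and these data do not say which cells held it. Aldh1l1, a widely used astrocyte marker, had 2 UMIs in micropillar members and 4 in flat members, and Gjb6 had 5 and 1, so neither could be read.

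White-matter type (fibrous) astrocyte genes were also higher. Of the 9 genes of that list, 6 of the 8 past the minimum were 2-fold higher in micropillar members, 3 of 7 in flat members and 6 of 8 with the 124 spots. Over all genes the shares called higher were 3.44%, 1.29% and 3.63%, in the same order. The summed ratio was 1.58 (1.46 to 1.70) in the micropillar section, 1.04 (0.92 to 1.15) in the flat section and 1.84 (1.71 to 1.96) with the 124 spots. In the range of 300 to 999 UMIs it was 0.99 (0.85 to 1.13) in the micropillar and 1.77 (1.63 to 1.91) in the flat section. Much of the sum was from metallothionein genes. In that range Mt1 and Mt2 gave 204 and 75 of 534 list UMIs in micropillar members, and 203 and 74 of 555 in flat members. Which cells held them was not tested. Fxyd1, phospholemman, a regulator of the sodium pump, had 116 UMIs in 66 micropillar members (1088 CPM) against 166 CPM, and 155 UMIs in 68 flat members (750 CPM) against 143 CPM. Its ratios were 2.64 (2.34 to 2.93) and 2.31 (2.03 to 2.59), the highest of the list in both sections, and 3.17 (2.88 to 3.45) with the 124 spots.

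Mt2 and Mt1, the metal-binding metallothioneins whose promoters are shown above, had ratios above 0 in both sections. Mt2 had 759 CPM in micropillar members against 204 CPM (1.85, 1.50 to 2.18) and 421 CPM in flat members against 163 CPM (1.32, 0.97 to 1.65), or 2.18 (1.82 to 2.52) with the 124 spots. Mt1 had 2231 CPM in micropillar members against 747 CPM (1.57, 1.37 to 1.76) and 1287 CPM in flat members against 698 CPM (0.87, 0.68 to 1.06), or 1.63 (1.43 to 1.83) with the 124 spots. Cryab, a small heat-shock protein that oligodendrocytes also express, had a ratio of 1.37 (0.88 to 1.84) in the micropillar section and 0.38 (-0.10 to 0.83) in the flat section, or 0.76 (0.20 to 1.29) with the 124 spots, and whether those ratios differ was not tested.

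Grey-matter astrocyte genes, among them transporters of protoplasmic astrocytes, had lower ratios than the fibrous list. Of 4 genes past the minimum, 1 was 2-fold higher in micropillar members, 0 in flat members and 1 with the 124 spots. The shares of all genes were 3.44%, 1.29% and 3.63%. The summed ratio was 0.71 (0.46 to 0.95) in the micropillar section, 0.35 (0.14 to 0.55) in the flat section and 0.86 (0.62 to 1.08) with the 124 spots. The glutamate transporter Slc1a2 had 525 CPM in micropillar members against 360 CPM (0.53, 0.13 to 0.91) and 547 CPM in flat members against 394 CPM (0.46, 0.17 to 0.74), or 0.99 (0.66 to 1.31) with the 124 spots. The potassium channel Kcnj10 had 300 CPM in micropillar members against 124 CPM (1.20, 0.66 to 1.71) and 155 CPM in flat members against 100 CPM (0.58, 0.03 to 1.09), or 1.15 (0.53 to 1.72) with the 124 spots.

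Surface astrocyte and endfoot genes were thinly counted. The 4 surface genes summed to 51 UMIs in micropillar members and 54 in flat members, with ratios of 1.26 (0.83 to 1.67) and 0.83 (0.40 to 1.24), or 1.58 (1.13 to 2.01) with the 124 spots. The most counted was Id3, a transcriptional inhibitor also expressed in vessels, with 19 UMIs in micropillar members (178 CPM against 66.4 CPM; 1.30, 0.59 to 1.94) and 35 in flat members (169 CPM against 50.2 CPM; 1.57, 1.03 to 2.10), or 2.20 (1.60 to 2.75) with the 124 spots. Myoc, a gene of astrocytes at the brain surface, had 6 and 5 UMIs, and Agt, the angiotensin precursor, 14 and 5. Of the endfoot complex, Mlc1 had 459 CPM in micropillar members against 146 CPM (1.59, 1.14 to 2.00) and 227 CPM in flat members against 107 CPM (1.02, 0.56 to 1.47), or 1.86 (1.38 to 2.32) with the 124 spots. Its partner Hepacam, an adhesion molecule, had 178 CPM in micropillar members against 44.6 CPM (1.78, 1.07 to 2.44) and 135 CPM in flat members against 44.5 CPM (1.42, 0.81 to 1.99), or 1.97 (1.29 to 2.59) with the 124 spots. Of the dystrophin-complex genes of that list, Dag1, Dtna and Dmd had 22 UMIs or fewer each in either set.

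Reactive astrocyte genes had no common direction over the sets compared. Of the 12 pan-reactive genes, 3 had no UMI in micropillar members and 4 had none in flat members. In the micropillar section 2 passed the minimum and neither was 2-fold higher, beside 3.44% of all genes. None passed in the flat section. The sum of all 12 was 52 UMIs in micropillar members (488 CPM) against 362 CPM and 63 UMIs in flat members (305 CPM) against 303 CPM. The ratio was 0.42 (-0.00 to 0.81) in the micropillar section, 0.01 (-0.38 to 0.37) in the flat section and 0.80 (0.39 to 1.18) with the 124 spots. Compared at 300 to 999 UMIs it was -0.49 (-0.95 to -0.06) in the micropillar section and 0.28 (-0.16 to 0.69) in the flat section, so its sign in the micropillar section differed with the depth of the spots compared.

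Member by member, the pan-reactive genes were near the limit of counting. Lcn2, a secreted iron-carrier binding protein, had 1 UMI in micropillar and 2 in flat members. Osmr, the oncostatin M receptor, had 0 and 1, Timp1 1 and 0, and Cxcl10 2 and 0. Serpina3n, a serine protease inhibitor, had 8 UMIs in micropillar members (0.88, -0.15 to 1.80) and 15 in flat members (0.96, 0.19 to 1.68), or a ratio of 1.58 (0.72 to 2.37) with the 124 spots. Cd44, a hyaluronan receptor, had 15 and 16 UMIs, with ratios of 0.44 (-0.34 to 1.14) and 0.04 (-0.68 to 0.72), or 0.81 (0.02 to 1.53) with the 124 spots.

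The list described for neuroinflammation was higher in sum, most of its UMIs in the members being from complement genes. It summed to 62 UMIs in micropillar members and 63 in flat members, with ratios of 1.43 (1.04 to 1.80) and 0.80 (0.40 to 1.18), or 1.64 (1.23 to 2.03) with the 124 spots. Within 300 to 999 UMIs the ratio was 0.61 (0.19 to 1.01) in the micropillar and 1.30 (0.85 to 1.73) in the flat section, so the order of the sections depended on the spots compared. C4b, complement component 4, had 23 UMIs in each set, 216 CPM in micropillar members against 23.8 CPM (2.74, 2.07 to 3.35) and 111 CPM in flat members against 22.5 CPM (1.90, 1.23 to 2.53), or 2.77 (2.07 to 3.41) with the 124 spots. Within 300 to 999 UMIs the C4b ratio was 2.18 (1.44 to 2.88) in the micropillar and 2.44 (1.63 to 3.20) in the flat section. C3, the central complement component, had 20 UMIs in each set, with ratios of 1.54 (0.85 to 2.18) and 0.99 (0.30 to 1.63), or 1.77 (1.04 to 2.44) with the 124 spots, and within 300 to 999 UMIs 0.45 (-0.31 to 1.14) and 1.37 (0.58 to 2.10). In that range C4b and C3 gave 23 and 18 of 58 list UMIs in micropillar members, and 20 and 18 of 53 in flat members. In other spots they gave 41 and 121 of 350, and 35 and 72 of 231. The remaining list genes were thinly counted in both sections. Together they were not higher in the micropillar members of that range, so the ratio there does not describe the list as a whole. Genes described after ischaemia stood at 0.05 (-0.44 to 0.51) in the micropillar section and -0.80 (-1.30 to -0.32) in the flat section, or -0.07 (-0.63 to 0.44) with the 124 spots. Within 300 to 999 UMIs that list stood at -0.71 (-1.23 to -0.22) and -0.72 (-1.35 to -0.15). Genes of the JAK and STAT pathway, which drives Gfap in reactive astrocytes, stood at 0.28 (-0.10 to 0.64) and 0.26 (-0.04 to 0.54), or 0.50 (0.14 to 0.85) with the 124 spots. At 300 to 999 UMIs this list stood at 0.11 (-0.33 to 0.52) in the micropillar and 0.55 (0.08 to 0.99) in the flat section. Stat3 had 3 and 5 UMIs, too few to be read.

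Genes of other cell types accompanied Gfap in the same spots. All 10 oligodendrocyte genes past the minimum were 2-fold higher in micropillar members, 5 of 8 in flat members and 8 of 9 with the 124 spots. Among all genes 3.44%, 1.29% and 3.63% were. The summed ratios were 1.59 (1.50 to 1.67) in the micropillar section, 0.92 (0.83 to 1.01) in the flat section and 1.70 (1.61 to 1.79) with the 124 spots, and within 300 to 999 UMIs 1.23 (1.13 to 1.32) and 1.79 (1.68 to 1.90). The myelin gene Mbp had 4060 CPM in micropillar members against 1215 CPM (1.73, 1.59 to 1.88) and 2013 CPM in flat members against 990 CPM (1.02, 0.86 to 1.17), or 1.78 (1.62 to 1.94) with the 124 spots. Trf, the transferrin gene, and Cldn11, a tight-junction claudin, both of the oligodendrocyte list, were among the 15 genes highest in both sections. Which cells held them was not tested.

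Microglia genes were also higher in sum. Past 2-fold were 4 of 5 in micropillar members, 0 of 2 in flat members and 4 of 5 with the 124 spots. Of all genes 3.44%, 1.29% and 3.63% were. The summed microglia ratios were 1.34 (1.08 to 1.58), 0.89 (0.65 to 1.12) and 1.65 (1.40 to 1.90). In spots of 300 to 999 UMIs they were 0.70 (0.43 to 0.96) in the micropillar and 1.51 (1.22 to 1.79) in the flat section. C1qa, a complement subunit made by microglia, had 23 UMIs in micropillar members (216 CPM against 66.8 CPM) and 31 in flat members (150 CPM against 48.6 CPM). The homeostatic microglia marker P2ry12 had 1 UMI in each set, too few to be read in either direction. Border macrophage genes had 3 UMIs in each set.

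Choroid plexus genes, of the secretory epithelium in the ventricles, had the highest ratios among lists with at least 100 UMIs in both sets of members, 2.42 (2.26 to 2.57) in the micropillar section, 1.91 (1.75 to 2.05) in the flat section and 2.79 (2.64 to 2.94) with the 124 spots. Ttr, the transthyretin of that epithelium, had 212 UMIs in micropillar members (1988 CPM against 339 CPM) and 255 in flat members (1234 CPM against 311 CPM), but with up to 44 and 51 of them in 1 spot. These UMIs came from few spots: 14 micropillar members with at least 5 choroid plexus UMIs held 325 of 401 (81.0%), and 16 flat members held 432 of 509 (84.9%). Other spots with at least 5 choroid plexus UMIs numbered 46 in the micropillar section and 30 in the flat section. With such spots left out of members and others alike, an alternative chosen after the data were seen, the choroid plexus ratio was 1.47 (1.12 to 1.81) in the micropillar section and 0.94 (0.58 to 1.29) in the flat section. The Clic6 ratio in the flat section was then -0.07 (-1.08 to 0.96), while the core astrocyte ratios were 1.33 (1.26 to 1.41) and 0.87 (0.81 to 0.93). Ependymal genes had 28 UMIs in micropillar members and 21 in flat members, with ratios of 2.47 (1.86 to 3.03) and 1.11 (0.43 to 1.74), or 1.73 (0.98 to 2.41) with the 124 spots. What part these spots have in the other lists was not tested beyond these values.

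Neuron genes differed in direction between the sets. Their sum gave -0.28 (-0.40 to -0.16) in the micropillar section, 0.26 (0.19 to 0.32) in the flat section, -0.23 (-0.33 to -0.12) with the 124 spots, and 0.32 (0.18 to 0.46) and 0.22 (0.03 to 0.40) within 300 to 999 UMIs in the micropillar and flat section. Its sign thus differed between the sets compared. Genes of skin and matrix were lower in sum: keratinocyte genes stood at -1.28 (-1.58 to -0.996) in the micropillar section and -2.27 (-2.60 to -1.96) in the flat section, and meningeal fibroblast genes at -0.36 (-0.52 to -0.21) and -1.33 (-1.53 to -1.14). With the 124 flat spots these lists stood at -1.45 (-1.80 to -1.13) and -0.65 (-0.86 to -0.44). Within 300 to 999 UMIs the keratinocyte list stood at -2.40 (-2.76 to -2.06) in the micropillar and -2.06 (-2.41 to -1.72) in the flat section, and the meningeal list at -1.57 (-1.74 to -1.41) and -1.43 (-1.67 to -1.20), so the gap between the sections was smaller in that range. The meningeal sum does not describe the typical spot. Over all depths its median share of a spot's UMIs was 0.176% in micropillar members against 0.0997% in other spots. In the 124 flat spots it was 0.124% against 0 in other flat spots. Single other spots reached 19.1% in the micropillar and 14.7% in the flat section, against 11.6% and 3.31% in members with Gfap. The Schwann list, a check on Gfap outside the brain, had 11 UMIs in micropillar members, all from 1 of its 5 genes, and 20 in flat members, with ratios of 0.18 (-0.72 to 0.98) and 0.47 (-0.20 to 1.10). With the 124 flat spots it had 17 UMIs and a ratio of 1.10 (0.34 to 1.78). The list holds Sox10, which oligodendrocytes also express.

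**Figure D3:**
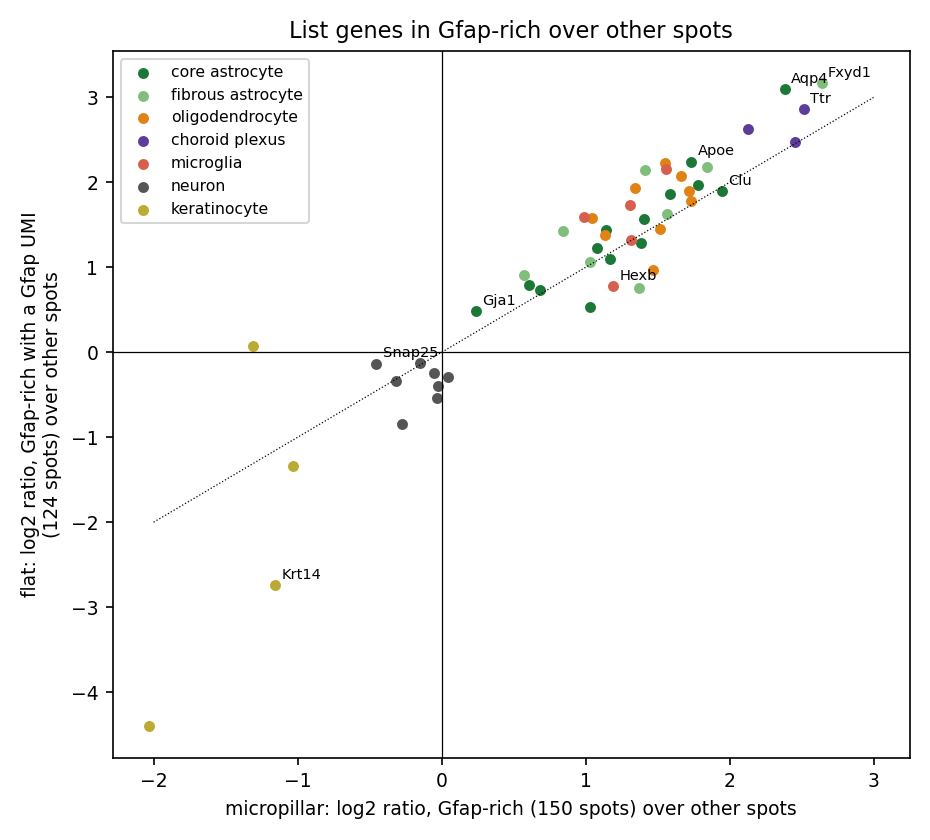
Each point is a gene of 7 lists with at least 100 CPM on average, placed by its log2 ratio of Gfap-rich over other spots in the micropillar section (horizontal axis) and in the 124 flat spots with Gfap (vertical axis); the dotted line marks equal ratios. Astrocyte, oligodendrocyte, choroid plexus and microglia genes lie above 0 on both axes, Aqp4 and Fxyd1 among the highest, and the 8 neuron genes lie between -0.84 and 0.05.

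Across all genes, 24 were 2-fold higher in Gfap-rich spots of both sections (1.10% of 2183 genes past the minimum in both) and 16 were 2-fold lower (0.733%). With the 124 flat spots, 57 were higher (2.60% of 2192) and 14 lower (0.639%). The 15 highest by the less extreme section were Aqp4, Fxyd1, Ttr, Apod, Enpp2, Trpm3, Clic6, Apoe, Trf, Dbi, Mt2, Id3, Igfbp2, Clu and Cldn11. Apod, a lipocalin of myelinating glia and fibroblasts, had 46 UMIs in micropillar members (2.54, 2.06 to 2.98) and 49 in flat members (1.93, 1.45 to 2.39). Dbi, the acyl-CoA binding protein of glia, had 38 and 63 UMIs (1.41, 0.91 to 1.88 and 1.37, 0.96 to 1.77). Igfbp2, an insulin-like growth factor binding protein, had 38 and 47 UMIs (2.16, 1.65 to 2.64 and 1.28, 0.81 to 1.73). The ion channel gene Trpm3, expressed in choroid plexus among other cells, had 49 and 86 UMIs (1.82, 1.37 to 2.24 and 1.80, 1.44 to 2.15).

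The 8 lowest were genes of hair follicle and epidermis, Tchh, Krt25, Krtdap, Sbsn, Cst6, Prr9, Sprr1a and Lgals7. Tchh, the trichohyalin of the hair root sheath, had 25 UMIs in micropillar members (234 CPM) against 1126 CPM in other spots, and 5 in flat members (24.2 CPM) against 814 CPM. Krt25, a root-sheath keratin, had 5 UMIs in micropillar members and 0 in flat members, against 402 UMIs in the other flat spots, which makes it at least 14.5-fold lower there when 3 counts are taken as the floor of the set.

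The core astrocyte level was higher in each class of spots with more Gfap UMIs, in classes that do not use the limit of 150. In the micropillar section the core astrocyte list stood at 7297 CPM in the 2390 spots without Gfap, 9425 CPM in 170 spots with 1 UMI, 11417 CPM in 54 spots with 2 and 31962 CPM (28692 to 35503) in 11 spots with 3 or more. In the flat section it stood at 6887 CPM in 1774 spots without Gfap, 15294 CPM in 90 spots with 1 UMI, 21307 CPM in 13 with 2 and 56745 CPM (52875 to 60822) in 21 with 3 or more. The median depth was 841 and 642 UMIs in the classes with 3 or more, and 961.5 and 874.5 in those without Gfap. The counting intervals of successive classes do not overlap in either section. These classes include the 85 micropillar spots with Gfap outside the members, all of at least 1000 UMIs. Summed over the core astrocyte list, those 85 spots were not above the micropillar spots without Gfap. The micropillar rise thus came from the members, which were chosen by Gfap share. Single genes of the 85 spots had no common direction against spots without Gfap. Their Apoe stood at 1040 CPM (914 to 1179) against 1259 CPM, and their Cst3 at 2510 CPM (2312 to 2721) against 2806 CPM. Clu (586 against 598 CPM) and Fxyd1 (170 against 166 CPM) were close, and Aqp4 was higher, at 102 CPM (65.3 to 152) against 54.7 CPM.

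Other lists followed the classes differently. The oligodendrocyte list reached 12123 CPM in the micropillar class with 3 or more Gfap UMIs against 3876 CPM in the class without, and 23608 CPM against 3051 CPM in the flat section. The neuron list was at 3123 CPM against 6642 CPM in the micropillar section and 2987 CPM against 7943 CPM in the flat section. Fxyd1 stood at 1378 CPM (15 UMIs) against 166 CPM in the micropillar section and at 4622 CPM (65 UMIs) against 139 CPM in the flat section. Vim stood at 459 CPM (149 to 1072, 5 UMIs) against 114 CPM (101 to 127) in the same micropillar classes and at 569 CPM (246 to 1121, 8 UMIs) against 77.3 CPM (65.6 to 90.4) in the flat ones. It did not follow the order of the classes: spots with 1 Gfap UMI had 55.9 CPM of Vim in the micropillar section (29.8 to 95.7), below the class without Gfap, and the 13 flat spots with 2 had 0 UMIs. The choroid plexus list did not follow the order: in the micropillar section it was lower with 3 or more Gfap UMIs (1010 CPM, 504 to 1808) than with 1 (1661 CPM, 1500 to 1835), though those intervals overlap.

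**Figure D4:**
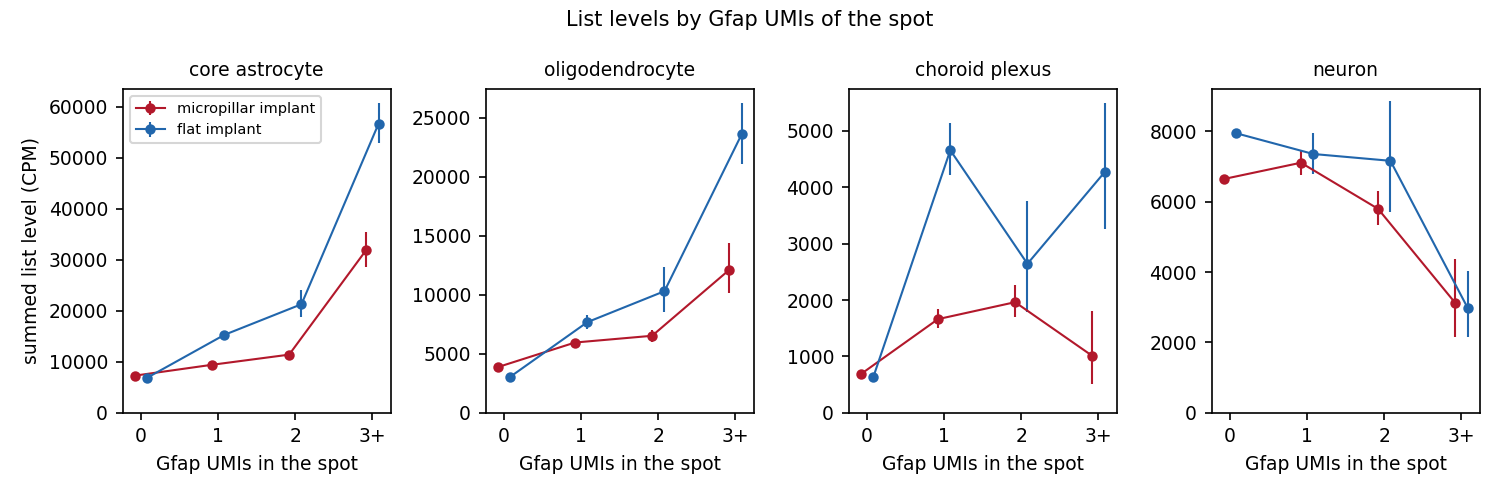
Summed level in CPM (vertical axis) of 4 gene lists in spots with 0, 1, 2 and 3 or more Gfap UMIs (horizontal axis), red the micropillar and blue the flat section, bars the 95% exact Poisson interval. The core astrocyte and oligodendrocyte levels climb with each class, to 56745 CPM for core astrocyte genes in 21 flat spots, and the neuron level is lowest in the last class.

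Not every astrocyte-rich spot was Gfap-rich. The 150 spots with the highest share of core astrocyte UMIs shared 57 spots with the 150 Gfap-rich spots of the micropillar section (38.0% of each) and 59 with those of the flat section (39.3% of each, and 47.6% of the 124 with Gfap). For comparison, the Gfap-rich spots are 150 of all 2625 micropillar and 150 of all 1898 flat spots of at least 300 UMIs. In each section 91 of the 150 core-astrocyte spots had no Gfap UMI. Only 8.95% of all such micropillar and 6.53% of all such flat spots had one. Since most members with Gfap held 1 UMI, absent and uncounted Gfap cannot be told apart in these spots. Below the spots with Gfap the ranking holds only ties ordered by depth. The next 150 spots, 85 of them with Gfap in the micropillar section and 0 in the flat section, had a median of 3325.5 and 2562 UMIs, against 847 and 713.5 beyond the first 600, so their core astrocyte levels, 5754 CPM against 8372 CPM and 4507 CPM against 9024 CPM, set deep spots against shallow ones and show no trend with Gfap. The core astrocyte share of a spot's UMIs had a median of 1.64% in micropillar members, ranging from 0 to 9.15%, against 0.714% in other spots. It was 1.98% in the 124 flat spots, ranging from 0.232% to 8.90%, against 0.677% in other flat spots.

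To put spots of different depth on 1 footing, each spot of the micropillar implant and flat implant sections was thinned to 300 UMIs and scored for at least 2 UMIs of a list. Core astrocyte UMIs were then present in 86.0% of micropillar members (79.4 to 91.1) against 64.6% of other spots, and in 76.7% of flat members (69.1 to 83.2; 87.9% of the 124) against 64.0% of other flat spots. Astrocyte and oligodendrocyte UMIs occurred in the same spot in 84 of 150 micropillar members against 535 of 2475 other spots, and in 75 of 150 flat members (73 of 124) against 315 of 1748 other spots. Neuron UMIs were present in 42.7% of micropillar members (34.6 to 51.0) and 48.2% of other spots, and in 47.3% of flat members (39.1 to 55.6; 38.7% of the 124) and 45.8% of other flat spots.

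Set against each other, the micropillar and flat Gfap-rich spots differed in a way that depended on which spots were compared. With 150 spots each, the core astrocyte list was higher in the micropillar section, 19192 CPM against 13094 CPM, a log2 ratio of 0.55 (0.47 to 0.63). With the 124 flat spots that hold Gfap it was lower, 19192 CPM against 21099 CPM (-0.14, -0.22 to -0.05). When the lowest Gfap share of the micropillar members was required in both sections, 150 micropillar and 102 flat spots remained and the ratio was -0.68 (-0.77 to -0.59). Restricted to 300 to 999 UMIs, 135 over 93 spots, it was -0.65 (-0.75 to -0.56). In the other spots the ratio was 0.04 (0.01 to 0.07). The sign thus turned when the 26 flat spots without Gfap were left out, and no direction between the sections held over these sets.

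The accompanying lists also changed sign between the sets. The oligodendrocyte ratio of micropillar over flat was 0.97 (0.86 to 1.09) with 150 spots each, 0.23 (0.12 to 0.35) with the 124 and -0.26 (-0.39 to -0.13) within 300 to 999 UMIs, beside 0.30 in other spots of all depths and 0.30 (0.23 to 0.37) in those of 300 to 999 UMIs. The choroid plexus ratio was 0.61 (0.42 to 0.80), -0.23 (-0.42 to -0.03) and -0.81 (-1.02 to -0.60), beside 0.10 in other spots of all depths and -0.32 (-0.46 to -0.19) in those of 300 to 999 UMIs. The neuron ratio was -0.75 (-0.88 to -0.61), -0.30 (-0.46 to -0.15) and 0.24 (0.02 to 0.46), beside -0.21 in other spots and 0.13 (0.06 to 0.21) in those of 300 to 999 UMIs, so its sign turned with depth in the other spots too. The pan-reactive ratio was 0.66 (0.12 to 1.20), -0.08 (-0.64 to 0.48) and -0.72 (-1.32 to -0.13), beside 0.25 and, in that range, 0.04 (-0.13 to 0.22). Meningeal fibroblast genes kept 1 direction, 1.62 (1.38 to 1.87), 1.00 (0.74 to 1.26) and 0.41 (0.13 to 0.70), and were also higher in the other micropillar spots (0.66, 0.61 to 0.70, and 0.56, 0.51 to 0.61 within 300 to 999 UMIs). The striatal neuron list was higher in micropillar members, 0.76 (0.45 to 1.06), 0.51 (0.17 to 0.85) and 0.80 (0.35 to 1.26), while in other spots it was lower over all depths (-0.78, -0.84 to -0.71) and near 0 within 300 to 999 UMIs (0.01, -0.09 to 0.11).

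**Figure D5:**
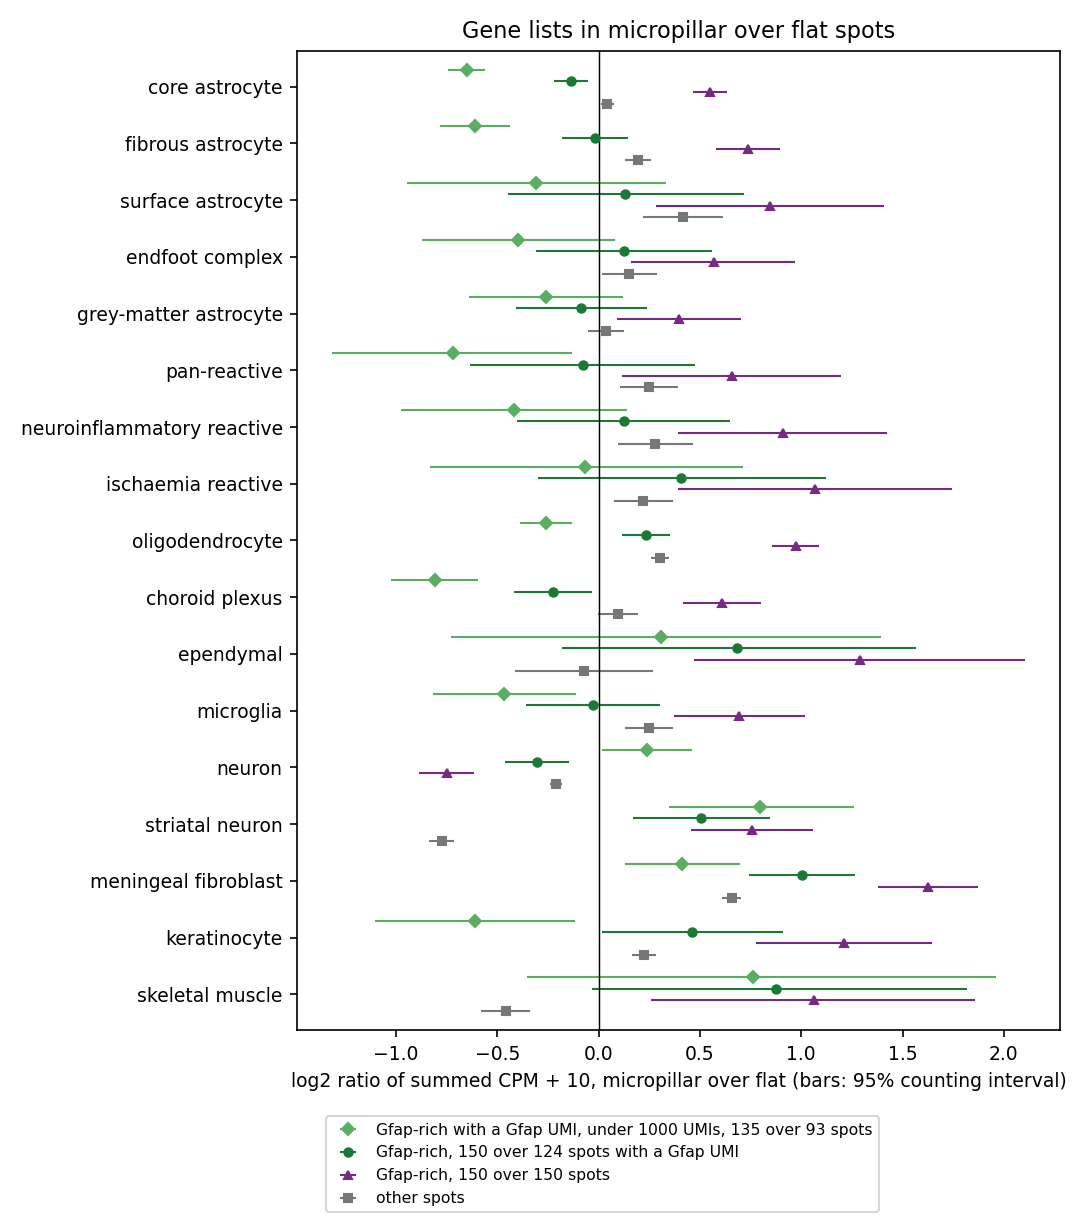
Log2 ratio of summed CPM + 10 in micropillar over flat spots (horizontal axis) for 17 gene lists (rows), with 95% counting intervals; triangles are 150 over 150 Gfap-rich spots, circles 150 over the 124 flat spots with Gfap, diamonds the Gfap-rich spots of 300 to 999 UMIs and squares the other spots. The core astrocyte list lies at 0.55, -0.14 and -0.65 in the 3 Gfap-rich sets and at 0.04 in the other spots.

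By gene, 90 genes were 2-fold higher in micropillar Gfap-rich spots (3.68% of 2443) and 82 lower (3.36%), a split that turned to 62 and 135 with TMM scaling and to 63 and 118 with DESeq2 size factors. With the 124 flat spots 74 were higher (2.97% of 2492) and 58 lower (2.33%), while in the far deeper sums of the other spots 3 were higher and 3 lower (0.123% of 2432 each way). The highest were Mucl2, Scgb1b2, Tchh, Zic1, Krt14, Six3, Prr9, Col3a1, Col1a2 and Rarres2. Mucl2, a mucin-like gene, had 56 UMIs over 40 micropillar members and 0 in flat members, at least 36.2-fold higher against a floor of 3 counts for the flat members. It also had 1255 UMIs in the other micropillar spots and 0 in the other flat spots, so the difference was not particular to Gfap-rich spots. Scgb1b2, a secretoglobin, had 51 UMIs over 41 micropillar members and 0 in flat members, at least 32.9-fold higher, and 822 UMIs against 1 in the other spots.

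The other genes named were skin, matrix and regional genes. Krt14, a basal keratin, had 51 UMIs in micropillar members (478 CPM) and 13 in flat members (62.9 CPM), and Col1a2, a collagen gene of fibroblasts, 196 UMIs (1838 CPM) and 81 (392 CPM). Up to 44 of the Col1a2 UMIs lay in 1 micropillar spot and up to 27 in 1 flat spot. Zic1, a transcription factor of the septum, thalamus and meninges, had 36 UMIs in micropillar members and 8 in flat members (2.83, 1.85 to 3.82; 2.10, 1.06 to 3.21 with the 124), beside 0.98 (0.73 to 1.24) in other spots. Six3, a forebrain transcription factor of the striatum, had 30 UMIs and 7 (2.73, 1.69 to 3.76; 2.01, 0.90 to 3.19 with the 124), beside 0.45 (0.24 to 0.65) in other spots.

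The lowest were Ighj1, Ttc9b, C130074G19Rik, Ndufv2, Cabp1, Plppr2, Cpne6, Vmp1, Slc30a3 and Gpr26. Ighj1, an immunoglobulin heavy chain joining segment, had 4 UMIs over 2 micropillar members and 46 over 20 flat members, 45 of them in the 124, with ratios of -2.29 (-3.59 to -1.04) and -3.11 (-4.41 to -1.85) with the 124. Slc30a3, the synaptic zinc transporter, had a ratio of -1.51 (-2.43 to -0.67) with 150 spots each and -0.75 (-1.79 to 0.26) with the 124. Cpne6, a copine of cortical neurons, had -1.58 (-2.57 to -0.67) and -0.99 (-2.09 to 0.07). For both the interval with the 124 spans 0. Ttc9b, Cabp1 and Gpr26 kept intervals below 0 with the 124, at -1.33 (-2.51 to -0.22), -1.35 (-2.23 to -0.51) and -1.38 (-2.40 to -0.42). Between 300 and 999 UMIs the intervals of all 3 spanned 0, at -0.99 (-2.41 to 0.43), -0.27 (-1.52 to 1.00) and -1.12 (-2.52 to 0.27), and in the other spots of all depths Ttc9b, Cabp1 and Gpr26 were also lower, at -0.50, -0.48 and -0.73.

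The markers were also compared between the sections. Aqp4 had 347 CPM in micropillar members and 247 CPM in flat members (0.47, -0.15 to 1.09), or 426 CPM in the 124 (-0.29, -0.93 to 0.34). In spots of 300 to 999 UMIs Aqp4 was lower in micropillar members (343 CPM against 678 CPM; -0.96, -1.69 to -0.25), as was Fxyd1 (1243 CPM against 2191 CPM; -0.81, -1.20 to -0.43). Vim had 159 CPM in micropillar members and 72.6 CPM in flat members (1.04, 0.04 to 2.02), or 133 CPM in the 124 (0.24, -0.78 to 1.26), so the difference in Vim with 150 spots each was not seen without the 26. With 1 section per group, the implant, the animal, the place of the section and the library cannot be told apart.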

How the data were processed

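The authors deposited, for each section, a matrix of UMI counts that are whole numbers and not normalised, with 19465 gene rows and the spots as columns. The file headers name Space Ranger 2.0.1. Per the submitters' processing notes, Cell Ranger 7.2.0 and mm10 were used, and the kit in the labels is one for directional mRNA. The sources do not give alignment settings or probes. Gene identifiers were matched to GENCODE M21 (19451 of 19465). Spot positions were not used here. Some genes of the lists are counted in their sums but not reported here by name. The members and the 29 gene lists were chosen with earlier results of these data known.

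Counts were summed over spots as CPM, and log2 ratios used a pseudocount of 10 CPM and genes of at least 100 CPM on average. Of 11 symbols on 2 rows the row with more counts was used. Intervals of 95% cover counting error only: they are exact Poisson for sums and exact Clopper-Pearson for shares and, through the binomial split of 2 sums, for ratios. With 1 library per group no test was made; a call means past 2-fold. Named genes were the 15 highest and 8 lowest by the less extreme section, the 10 highest and 10 lowest between sections with the same direction under TMM scaling (edgeR 4.0.16) and per-spot means, Gfap, Aqp4 and Vim, and list genes. For each list the most abundant, highest and lowest were eligible, and any astrocyte or reactive gene; P2ry12, Dmp1 and Stat3 fall outside the rule and were named after their values were seen. DESeq2 1.42.0 gave size factors. Scripts ran in Python 3.11.15 and R 4.3.3 and were tested on simulated data. Doublets were not called, since a spot is not a cell. Depth totals are in the text. Alternatives covered the number and depth of spots, thinning, scaling, pseudocount and filter. Splits by Gfap UMIs, by Gfap share, by choroid plexus UMIs and by spots under and over 1000 UMIs were chosen after seeing the data.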

Additional observations from a re-analysis of the deposited data

Results flagged for a closer look

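Several results (4) had opposite signs in the 2 sections, and none of these differences was tested. The neuron list ratio of Gfap-rich over other spots was -0.28 in the micropillar section and 0.26 in the flat section, but -0.23 with the 124 flat spots that hold Gfap, and 0.32 and 0.22 within 300 to 999 UMIs, where the signs are the same. The striatal neuron list stood at 0.31 in the micropillar section and -1.22 in the flat section (-0.92 with the 124), and within 300 to 999 UMIs at -0.35 (-0.60 to -0.11) and -1.14 (-1.54 to -0.76), the same sign. Six3 stood at 0.56 and -1.72, with -0.94 for the 124 (interval up to 0.01) and 0.10 (-0.61 to 0.75) and -1.46 (-2.94 to -0.19) within 300 to 999 UMIs. Cpne6 stood at -0.93 and 0.75, with 0.06 (-0.59 to 0.66) for the 124 and -0.23 (-1.26 to 0.68) and 0.45 (-0.58 to 1.36) within 300 to 999 UMIs. Neither list kept opposite signs in all of these sets of spots.

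Gfap was also counted in the spots under 300 UMIs, which no comparison used. These held 43 Gfap UMIs in the micropillar section (0.0420% of their 102272 UMIs, exact interval 0.0304 to 0.0566%) and 28 in the flat section (0.0167% of 167629 UMIs, 0.0111 to 0.0241%). The shares in spots of at least 300 UMIs were 0.0103% and 0.00982%.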

How the results depend on the processing

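No paired analysis was possible because each group has 1 library, so the groups share only 1 replicate number. Of 1848 recomputed values of single genes and of lists other than the core astrocyte list, 47 that had been past 2-fold changed sign, 562 others left the counting interval of the reported value and 1239 stayed in it. As reported, the core astrocyte ratio was 1.40 (micropillar), 0.89 (flat) and 0.55 (micropillar over flat), genes called in both sections numbered 24 higher and 16 lower, genes between sections 90 higher and 82 lower, and the next 150 spots by Gfap share over those beyond the first 600 (called ranks below; past the spots with Gfap they follow depth) stood at -0.54 (micropillar) and between -1.07 and -0.93 (flat, counting interval). The same order is kept below, and a value not given stayed within its interval or, for a count of genes, within 1.5 times the reported one. The cause was not tested unless the number of spots without Gfap shows it.

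With 75 spots per section the values were 1.99, 2.43 and -0.36, genes 127, 64, 219 and 248, ranks 0.78 and -0.22, and between sections C130074G19Rik 1.34 and Slc30a3 0.076. With 300 spots they were 0.12, -0.051 and 0.14, genes 0, 28, 34 and 14, and ranks -0.87 (micropillar). Below 0 then were Trf (-0.020), Id3 (-0.29) and the microglia list (-0.24) in the micropillar section, and Clic6 (-0.052), Apoe (-0.017), Mt2 (-0.027) and the fibrous list (-0.16) in the flat section, and Ndufv2 stood at 0.11 between sections. With at least 500 UMIs, 58 flat members lack Gfap, and the values were 0.89 and 0.47, genes 6 and 7 in both and 50 lower between sections, and ranks -0.68 (micropillar). With at least 1000 UMIs they were -0.054, -0.36 and 0.36, genes 0, 1, 47 and 19, and ranks -0.47 and -0.71. Below 0 then were Clic6 (-0.11), Id3 (-0.60) and the microglia list (-0.30) in the micropillar section, and Apod (-0.14), Clic6 (-0.26), Apoe (-0.35), Trf (-0.52), Mt2 (-0.86), Clu (-0.011), Cldn11 (-0.42) and the fibrous list (-0.48) in the flat section, and Ndufv2 stood at 0.15 between sections. Ranked after thinning to 300 UMIs, 27 and 80 members lack Gfap, and the values were 0.22, 0.20 and 0.037, genes 0 higher in both and 47 and 44 between sections, and ranks -0.80 (micropillar). Below 0 were Ttr (-0.069) and Id3 (-0.14) in the micropillar section and Ttr (-0.63), Enpp2 (-0.072), Trpm3 (-0.28), Clic6 (-0.87) and the choroid plexus list (-0.45) in the flat section.

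TMM scaling moved all genes by -0.11 in micropillar members over other spots and by -0.16 between sections, and gave 1.29, 0.39 and 135 lower between sections. DESeq2 size factors gave 1.31 and 0.42. Means of per-spot CPM gave 1.46 (flat) and -0.11 between sections, and 56 and 31 genes in both. A pseudocount of 50 CPM gave 14 higher in both and 38 and 28 between sections. A filter of 50 CPM gave 28 lower in both and 251 and 204 between sections, a filter of 200 CPM gave 14, 9, 17 and 27, and no filter 72, 178, 1158 and 1026. Core astrocyte UMIs were in 86.0% of micropillar and 76.7% of flat members, in 97.3% and 91.3% at 1 UMI or more, 76.0% and 66.0% at 3 or more, and 96.7% and 100% unthinned.

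The following were chosen after seeing the data. Members with a Gfap UMI gave 1.61 (flat), -0.14 and 57 higher in both. An equal Gfap share minimum gave 2.16 (flat), -0.68, 68 higher in both and 126 lower between sections, with Vim at -0.25 and C130074G19Rik at 0.29. At least 2 Gfap UMIs (65 and 34 spots) gave 0.85, 2.49 and -1.59 and 312 and 423 genes between sections, with Vim at -1.22, Rarres2 -1.13, Ndufv2 3.05, Plppr2 0.45, Vmp1 0.45 and Slc30a3 0.41. With members of 5 or more choroid plexus UMIs left out but such other spots kept, which by itself lowers the choroid plexus ratios, the micropillar value was 1.31 and 13 genes were higher in both, and in the flat section Ttr was at -0.72, Enpp2 -0.46, Clic6 -1.33 and the choroid plexus list -0.70. With such spots left out on both sides Clic6 was at -0.068 in the flat section and the choroid plexus list at 0.94. Under 1000 UMIs the values were 1.04, 1.78 and -0.65, genes 45, 55, 157 and 149, with Vim at -0.16 and C130074G19Rik at 0.63 between sections. At 1000 UMIs or more (15 and 31 members) they were 0.82, 0.50 and 0.44, genes 12, 7, 377 and 324, with Id3 at -2.46 and the microglia list at -0.21 in the micropillar section and Vim at -2.21 between sections. With 1 library per group, counting error is the only error shown, and genes under about 20 UMIs are read by their intervals.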
